A study of Mus musculus with 4 samples.

Results

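Collagens, laminins and integrins were examined in single-cell RNA sequencing of the mouse cortex at embryonic day E16.5. The genes were taken by symbol from the 4 count tables: rows beginning with Col and a digit, with Lama, Lamb or Lamc and a digit, or with Itga or Itgb and a further digit or letter, together with Fn1, Tnc and Hspg2. They numbered 90 of 33444 named gene rows. By role they were 11 fibrillar collagens, 8 collagens of basement membranes, 25 other collagens, 11 laminins, 18 integrin alpha chains, 9 integrin beta chains and 3 further matrix proteins. The remaining 5 (Col4a3bp, Itgb1bp1, Itgb1bp2, Itgb3bp and Itgbl1) match the symbol pattern but encode no collagen, laminin or integrin themselves, so 85 genes carried the family names in the biological sense. Over all kept cells the 90 rows held between 1 and 8189 counts each, and 77 of them held at least 20.

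Collagens and laminins are secreted proteins that assemble outside the cell. Fibrillar collagens give connective tissue its strength, whereas type IV collagen and laminins build the basement membrane, the thin sheet that surrounds blood vessels and covers the brain surface under the meninges. Integrins are pairs of one alpha and one beta chain in the plasma membrane that bind these proteins from the cell side. In the developing cortex, the end feet of radial glia, the stem cells of this tissue, attach through integrins to the basement membrane at the brain surface.

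The groups were 2 COP1 KO libraries and 2 HET libraries, all of C57BL/6 background, with each library made from 1 mouse. COP1 is a substrate receptor of a ubiquitin ligase that directs transcription factors of the AP-1 and ETS families to degradation. The sample titles call the COP1 KO mice CKO. The labels do not say what alleles HET stands for, name no Cre driver and give no sex, litter or replicate number. The dissociated cells were captured with a 10x Chromium 3′ kit, so that each transcript is counted near its 3′ end, and levels of different genes were therefore compared without division by gene length.

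The deposited totals were 28049007 and 28988265 counts in COP1 KO, and 28327090 and 28071382 in HET. After filtering, 5191 and 4728 COP1 KO cells and 4546 and 4315 HET cells remained, with medians of 4431 and 5049 counts per cell in COP1 KO and 5090.5 and 5390.0 in HET. Between libraries, 181 cell barcodes were shared. Rfwd2, the symbol that the tables use for the Cop1 gene, gave 31.0 and 30.2 CPM (counts scaled to a common library total) in COP1 KO and 32.5 and 39.8 CPM in HET, with no library near 0. In the radial-glia-like class named below it gave 19.7 and 23.5 CPM in COP1 KO and 24.6 and 34.8 CPM in HET. Intermediate-progenitor-like values were 25.4 and 29.3 CPM in COP1 KO and 37.2 and 47.3 CPM in HET. Excitatory-neuron-like values overlapped, at 36.2 and 32.9 CPM in COP1 KO and 34.1 and 41.6 CPM in HET. Since the deleted segment is not described in the labels, a tag at the 3′ end may lie outside it and does not check the genotype. Cells were grouped into 28 clusters, and clusters were named from marker genes that include no gene of the set described here. The classes were radial-glia-like (1300 cells), intermediate-progenitor-like (1418), ganglionic-eminence-progenitor-like (1183), excitatory-neuron-like (7759), cortical-interneuron-like (1961), striatal-projection-neuron-like (1702), Cajal-Retzius-like (250), oligodendrocyte-precursor-like (323), fibroblast-like (92), microglia-like (86), endothelial-like (63), mural-like (42) and erythroid-like (16). Cells with striatal and ganglionic eminence markers were thus present in tissue labelled as cortex. A neuron cluster of 1785 cells, led by Hs3st4, Nxph3 and Nfe2l3, scored highest for excitatory neuron markers (1.132, against 0.422 for striatal markers). Its leading genes held 1 striatal marker (Ppp1r1b) and 0 excitatory markers. By the naming rule it therefore kept its number and is called cluster 0. The 800 remaining cells stayed unnamed. Levels below are CPM of the counts summed per library over the cells of a class, so that the library and not the cell is the replicate.

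The summed level of the 85 genes separated the classes widely. It averaged 12818 CPM in fibroblast-like cells, 5877 CPM in mural-like cells and 4796 CPM in endothelial-like cells. Oligodendrocyte-precursor-like cells followed with 1191 CPM, radial-glia-like cells with 886 CPM and microglia-like cells with 829 CPM. Intermediate-progenitor-like cells reached 314 CPM, and the neuron classes lay between 138 CPM in cluster 0 and 203 CPM in Cajal-Retzius-like cells. In the 4 libraries the radial-glia-like sum was 893 and 1047 CPM in COP1 KO and 764 and 839 CPM in HET. The excitatory-neuron-like sum was 153 and 169 CPM in COP1 KO and 176 and 165 CPM in HET, below the radial-glia-like sum in every library. These are descriptions without a test, because the classes were formed by clustering the same counts.

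**Figure D1:**
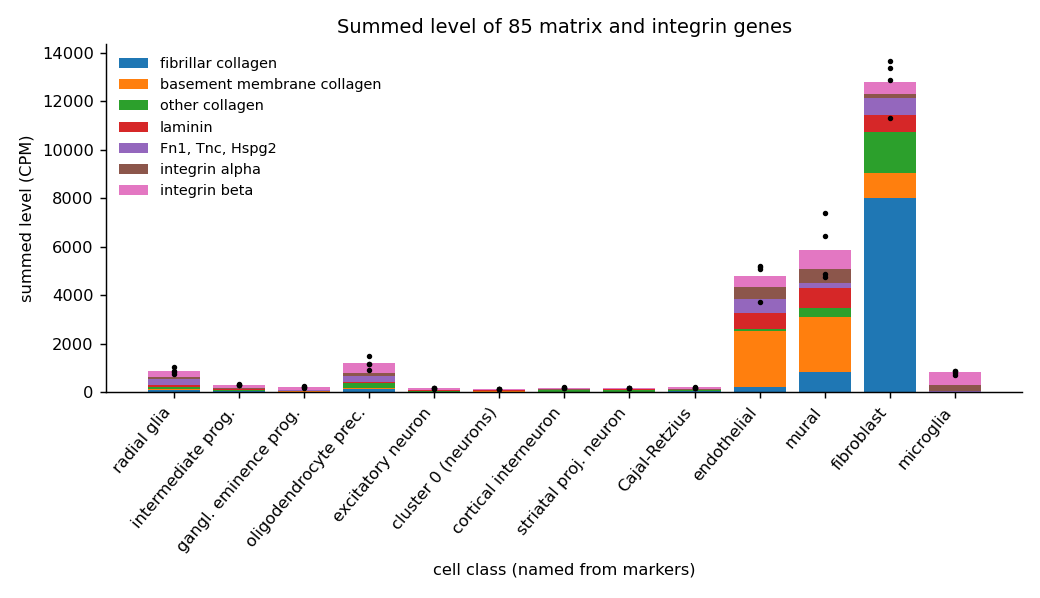
Stacked bars show the mean summed level (CPM, y axis) of the 85 genes in each cell class (x axis), coloured by role, and black points show the total in each of the 4 libraries. The fibroblast bar reaches 12818 CPM and consists mostly of fibrillar collagen, basement membrane collagen is the largest role in the endothelial (2316 CPM) and mural (2254 CPM) bars, and the neuron bars stay at or below 203 CPM.

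Fibroblast-like cells, which expressed markers of meningeal fibroblasts such as Dcn and Slc6a13, carried the fibrillar collagens. Their 11 fibrillar collagen genes summed to 7996 CPM on average. Col1a1, one of the chains of type I collagen, had 95.003% of all its counts in these 92 cells, Col3a1, the chain of type III collagen, had 88.9% and Col1a2, the second type I chain, had 88.0%. Col1a2, Col3a1 and Col1a1 stood among the genes that led this cluster. The cluster was formed from counts that include them, so their high level there is a description and no test. Its name came from markers outside the set. The same cells held 87.6% of the counts of Col6a1, a chain of the beaded-filament type VI collagen, and 35.6% of those of Col26a1.

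Col1a2 in fibroblast-like cells measured 2917 and 3209 CPM in COP1 KO and 2783 and 2799 CPM in HET. Col3a1 measured 1434 and 2402 CPM in COP1 KO and 3127 and 3112 CPM in HET. Col1a1 measured 1440.0 and 2794 CPM in COP1 KO and 2104 and 1706 CPM in HET. Col1a2 was thus slightly higher and Col3a1 lower in both COP1 KO libraries, while the Col1a1 libraries overlapped, with the 2 COP1 KO values lying outside the HET values on either side. Fn1, which encodes fibronectin, a soluble and cell-bound adhesion protein, measured 529 and 543 CPM in COP1 KO and 766 and 792 CPM in HET, without overlap. Of the 42 members of at least 20 CPM in this class, 9 were higher and 8 lower in COP1 KO without overlap. The share over all genes at that level was 36.0%.

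Endothelial-like and mural-like cells, the lining of vessels and the contractile cells around them, carried the basement membrane. Col4a1 and Col4a2, which form the common type IV collagen trimer, averaged 1140.4 and 970 CPM in endothelial-like cells and 1238 and 895 CPM in mural-like cells. Both classes together held 73.2% of all Col4a1 counts and 71.8% of all Col4a2 counts, although they made up 105 of 18780 cells. Fibroblast-like cells held a further 13.5% of Col4a1 and 14.1% of Col4a2. The 2 genes kept nearly the same split over the classes, which describes these 4 libraries and was not tested.

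Col4a1 and Col4a2 lie head to head on mouse chromosome 8, and their promoters are shown because they share sequence. In the RefSeq tables of GRCm38.p6, the 300-base windows around the annotated starts, chr8:11312777-11313076 on the minus strand for Col4a1 and chr8:11312555-11312854 on the plus strand for Col4a2, overlap by 78 bases (chr8:11312777-11312854). Capitals mark the shared bases, each window being written 5′ to 3′ on the strand of its own gene.
Col4a1: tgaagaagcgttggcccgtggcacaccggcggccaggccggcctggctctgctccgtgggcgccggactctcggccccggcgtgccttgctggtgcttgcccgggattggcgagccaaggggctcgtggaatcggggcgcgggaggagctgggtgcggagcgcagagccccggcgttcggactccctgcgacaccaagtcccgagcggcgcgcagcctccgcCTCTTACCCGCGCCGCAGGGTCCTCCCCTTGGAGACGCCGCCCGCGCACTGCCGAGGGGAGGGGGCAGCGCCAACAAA
Col4a2: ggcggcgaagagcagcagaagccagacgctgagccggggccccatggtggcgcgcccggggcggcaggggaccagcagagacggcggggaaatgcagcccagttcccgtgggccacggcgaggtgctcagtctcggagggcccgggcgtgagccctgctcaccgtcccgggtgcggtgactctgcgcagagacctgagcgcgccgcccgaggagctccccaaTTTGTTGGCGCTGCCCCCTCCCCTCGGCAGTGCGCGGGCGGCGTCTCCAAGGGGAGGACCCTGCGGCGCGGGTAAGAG
Both windows are rich in G and C (74.0% for Col4a1 and 73.7% for Col4a2), and neither holds the letters TATAAA.

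Of the laminins, Lama4 (alpha 4 chain), Lamb1 (beta 1 chain) and Lamc1 (gamma 1 chain) were the leading chains of vessel cells. They averaged 212, 170 and 201 CPM in endothelial-like cells and 191, 266 and 234 CPM in mural-like cells. Lamb2, the other widely used beta chain, averaged 41.9 CPM in endothelial-like and 22.2 CPM in mural-like cells, and Lama5 averaged 5.44 and 4.20 CPM. Lama3 had no count in either class or in fibroblast-like cells. Lama1 and Lama2, alpha chains of other basement membranes, were highest in fibroblast-like cells, at 47.4 and 60.2 CPM. Lama4 held 67.8% of its counts in vessel cells, and Lamc3 held 96.7% in vessel and fibroblast-like cells together. Hspg2, which encodes the basement membrane proteoglycan perlecan, averaged 149 CPM in endothelial-like cells, 38.4 CPM in fibroblast-like cells and 17.1 CPM in mural-like cells.

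Integrin chains of vessel cells were led by Itgb1, the beta chain shared by most matrix-binding integrins, with 416 CPM in endothelial-like and 615 CPM in mural-like cells. Itga1, the alpha chain of a collagen receptor, averaged 85.2 CPM in endothelial-like and 233 CPM in mural-like cells, and 79.7% of its counts lay in these classes. Itga5, the alpha chain of the classical fibronectin receptor, averaged 115 CPM in endothelial-like cells, where Fn1 averaged 426 CPM. Itga6, the alpha chain of laminin receptors, averaged 81.7 CPM there. Itgb8 had no count in endothelial-like or mural-like cells.

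**Figure D2:**
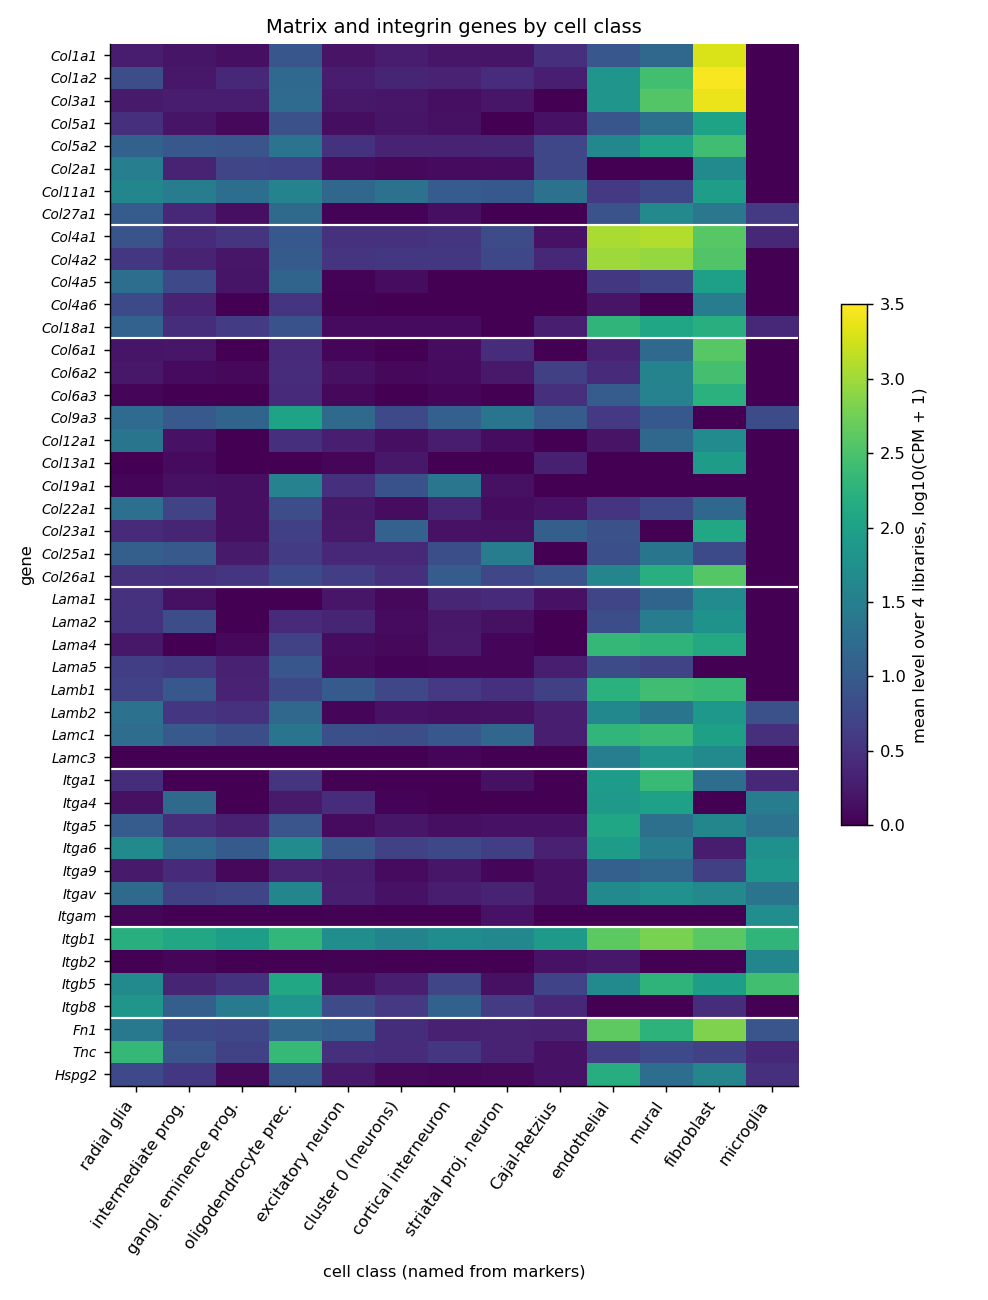
The heat map shows the mean level over the 4 libraries, as log10(CPM + 1), of 46 of the genes (rows, in blocks by role from fibrillar collagens at the top to Fn1, Tnc and Hspg2 at the bottom) in each cell class (columns). The brightest blocks are fibrillar collagens in fibroblast-like cells and Col4a1 and Col4a2 in vessel cells, Itgb1 is visible in every class shown, and Tnc is bright in the radial glia and oligodendrocyte precursor columns.

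Radial-glia-like cells held a different and smaller set. Tnc, which encodes tenascin-C, a large glycoprotein of progenitor zones, averaged 213 CPM and was the highest of the 90 rows there. Of all Tnc counts, 70.3% lay in radial-glia-like and 20.8% in oligodendrocyte-precursor-like cells, where Tnc averaged 222 CPM. Itgb1 followed with 161 CPM, and then Itgb3bp with 78.9 CPM, a centromere protein that is no integrin chain. Among further integrin chains, Itgb8 averaged 66.4 CPM, Itgb5 46.7 CPM, Itga6 46.6 CPM and Itgav, the alpha chain that pairs with beta 5 and beta 8, 15.2 CPM. The basement membrane genes were low in these cells, with 6.98 CPM for Col4a1, 2.67 CPM for Col4a2, 4.97 CPM for Hspg2 and 17.0 CPM for Lamc1. Lamb1 was at 3.84 CPM, Lamb2 at 19.9 CPM, Lama1 at 2.15 CPM, Lama2 at 2.27 CPM and Lama5 at 3.52 CPM. For a few collagens most counts nevertheless lay in this large class. Col2a1, best known as the main collagen of cartilage, had 71.2% of its counts in radial-glia-like cells, Col12a1, a fibril-associated collagen, had 63.1%, Col22a1 had 56.5% and Col4a5 had 50.3%. By level, fibroblast-like cells were higher than radial-glia-like cells for Col2a1 (46.5 against 30.1 CPM), Col12a1 (48.5 against 22.1 CPM) and Col4a5 (94.1 against 17.4 CPM). Col22a1 averaged 14.3 CPM in fibroblast-like and 17.8 CPM in radial-glia-like cells.

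The Tnc promoter is shown because Tnc had the highest level of the 90 rows in radial-glia-like cells. RefSeq gives 2 starts, and the window around one of them (chr4:64046887-64047186, minus strand, GRCm38.p6) is printed 5′ to 3′ with its TATAAA in capitals. The capitals mark these letters only, toward the 5′ end of the window, and their distance from the starts was not assessed.
Tnc: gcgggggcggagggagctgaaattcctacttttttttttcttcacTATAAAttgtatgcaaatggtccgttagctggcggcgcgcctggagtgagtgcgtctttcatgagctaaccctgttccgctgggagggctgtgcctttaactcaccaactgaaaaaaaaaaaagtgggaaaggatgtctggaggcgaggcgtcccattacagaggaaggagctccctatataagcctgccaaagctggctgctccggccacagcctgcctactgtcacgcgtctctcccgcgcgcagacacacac
The letters TATAAA, read on both strands, stood in 13.6% of 32851 RefSeq windows and in 7 of the 71 windows that matched 64 of the 90 genes. The AP-1 letters TGANTCA, where N is any base, stood in 7.81% of all windows and in those of 4 genes, Col6a1, Itga3, Itga9 and Itgax. The ETS letters CCGGAAGT stood in 3.89% of all windows and in 1 of the 71, that of Itgb1bp1. Neither AP-1 nor ETS letters were found in the windows of Tnc, Col4a1, Col4a2 or Col25a1, which says only that these letters are not in these 300 bases. None therefore overlaps the TATAAA of Tnc. Fn1 and Col2a1 had no window in this source, so neither was read for these letters.

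Intermediate-progenitor-like cells, the daughters of radial glia, kept Itgb1 at 124 CPM but had Tnc at 7.26 CPM. Their next rows were Itgb3bp at 61.5 CPM and Itgb1bp1, an adaptor that binds the tail of integrin beta 1, at 45.4 CPM. Ganglionic-eminence-progenitor-like cells had Itgb1 at 89.6 CPM, Itgb3bp at 75.3 CPM and Itgb1bp1 at 36.0 CPM. Oligodendrocyte-precursor-like cells had Itgb1 at 207 CPM and Itgb5 at 123 CPM after Tnc, together with Itgb8 at 65.1 CPM and Itgav at 39.7 CPM.

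Neurons expressed few of these genes. In excitatory-neuron-like cells the highest were Itgb1 at 51.1 CPM, Itgb1bp1 at 44.0 CPM and Col9a3, a chain of the fibril-associated type IX collagen, at 15.1 CPM. Itgb1bp1 and Itgb1 were also the 2 highest rows of cluster 0 (50.9 and 36.8 CPM), cortical interneurons (39.9 and 49.99 CPM), striatal projection neurons (52.0 and 42.5 CPM) and Cajal-Retzius-like cells (63.8 and 74.4 CPM). The third row differed between the neuron classes. It was Col11a1, a fibrillar collagen, in cluster 0 (19.2 CPM) and Cajal-Retzius-like cells (20.1 CPM), Col19a1 in cortical interneurons (22.5 CPM), and Col25a1, a membrane-bound collagen of neurons, in striatal projection neurons (29.1 CPM). Cortical interneurons held 36.2% of all Col19a1 counts and striatal projection neurons 34.2% of all Col25a1 counts. Col23a1, another membrane-bound collagen, had 37.8% of its counts in cluster 0, at a level of 11.7 CPM. These shares depend on the size of a class as well as on its level. Fibroblast-like cells reached 124 CPM for Col23a1, and oligodendrocyte-precursor-like cells reached 35.0 CPM for Col19a1.

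Microglia-like cells, whose cluster was led by Pf4 and the chemokine genes Ccl2, Ccl4, Ccl7 and Ccl3, expressed integrins but hardly any matrix. Itgb5 averaged 278 CPM, Itgb1 195 CPM and Itga9 69.0 CPM. Itgam and Itgb2, the 2 chains of a leukocyte integrin, averaged 50.6 and 39.2 CPM and had 80.6% and 79.3% of their counts in these 86 cells. In contrast, the 11 fibrillar collagens together reached 4.96 CPM and the 11 laminins 8.21 CPM.

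The genotypes were then compared in sums per library, with edgeR's quasi-likelihood test over all genes that passed its filter on low counts and Benjamini-Hochberg adjustment over all of them. A gene is said to have risen or fallen only with an adjusted p under 0.05. In radial-glia-like cells Fn1, Tnc and Col25a1 rose and Col2a1 fell in COP1 KO. These were 4 of the 31 members tested, against 3.06% of the 11417 genes tested. The other 59 of the 90 had too few counts to be tested there. At an unadjusted p under 0.05 stood 14 of the 31, 12 of them higher in COP1 KO, against 15% of all genes. The median log2 change was 0.15 over the members tested and -0.01 over all genes tested.

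Fn1 measured 41.6 and 35.2 CPM in COP1 KO radial-glia-like cells and 11.003 and 13.2 CPM in HET. The COP1 KO libraries were both higher, and the log2 change was 1.70 (SE 0.22, edgeR adjusted p = 0.004057). Tnc measured 229.9 and 304 CPM in COP1 KO and 169.8 and 148 CPM in HET, again without overlap (log2 change 0.80, SE 0.13, edgeR adjusted p = 0.01032). Col25a1 measured 18.3 and 17.8 CPM in COP1 KO and 1.05 and 4.85 CPM in HET, from 40 and 41 counts in COP1 KO and 2 and 11 counts in HET. Its log2 change of 2.57 was thus the largest of the 31 and among the least precise (SE 0.45, edgeR adjusted p = 0.01828). Col2a1 went the other way, with 8.68 and 18.7 CPM in COP1 KO and 43.5 and 49.4 CPM in HET (log2 change -1.71, SE 0.28, edgeR adjusted p = 0.01216).

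The calls of Fn1, Tnc and Col2a1 depended on both HET libraries, and that of Col25a1 on HET replicate 1. Without HET replicate 1 no member was called, with adjusted p of 0.06461 for Fn1, 0.06919 for Tnc, 0.09831 for Col25a1 and 0.09123 for Col2a1, and log2 changes of 1.58, 0.90, 1.93 and -1.79. Without HET replicate 2 only Col25a1 was called, with a log2 change of 4.08. Leaving out the first COP1 KO library gave Col2a1 a log2 change of -1.29, and leaving out the second gave -2.34. Without COP1 KO replicate 1 the count was 8 and without COP1 KO replicate 2 it was 7. Annotated genes overlap 3 of the loci in GENCODE M21: 1 on the opposite strand at Fn1 (Apol7d), 1 on the opposite strand at Tnc (8030451A03Rik), and 5 on the same strand at Col25a1. Whether counting used strand is not given in the sources used here, so their reads cannot be told apart.

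**Figure D3:**
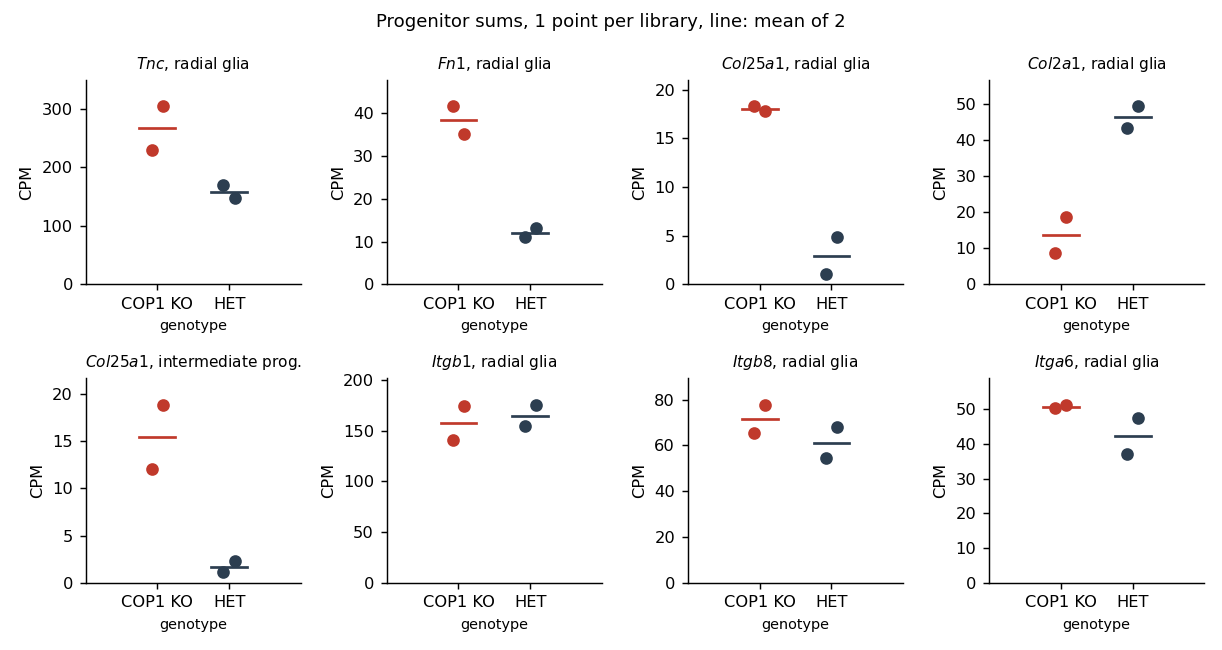
Each panel shows 1 gene in 1 progenitor class, with a point per library, a line at the mean of the 2 libraries of a genotype, and the level in CPM on the y axis starting at 0. In radial glia, Tnc, Fn1 and Col25a1 lie higher in COP1 KO and Col2a1 lies lower, without overlap of the libraries, while the Itgb1 values of the genotypes overlap.

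The radial-glia-like class joined cluster 11, led by Aldoc, Mt3 and Hes5 (807 cells), and the cycling cluster 16, led by Hes1, Prc1 and Ccna2 (493 cells). Fn1, Tnc, Col25a1 and Col2a1 were each called, in the same directions, in each cluster alone, which was an alternative chosen after seeing the data. Each cell was also thinned to 2000 counts, which left out 177 and 34 cells of the COP1 KO libraries and 1 and 0 of the HET libraries over all classes, and cells with a count of the gene were tallied. Tnc was then found in 128 of 382 (33.5%) and 132 of 333 (39.6%) COP1 KO radial-glia-like cells, and in 70 of 282 (24.8%) and 62 of 300 (20.7%) HET cells. The exact 95% binomial intervals, which cover counting error only, were 28.8% to 38.5% and 34.3% to 45.1% in COP1 KO, and 19.9% to 30.3% and 16.2% to 25.7% in HET. Without thinning the Tnc shares were 56.4% and 64.0% in COP1 KO and 52.8% and 46.7% in HET.

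Fn1 was found in 6.54% and 6.01% of thinned COP1 KO radial-glia-like cells and in 1.77% and 1% of HET cells, and without thinning in 18.4% and 19.5% of COP1 KO cells and 6.74% and 8.67% of HET cells. In cortical interneurons, taken as the background from free RNA, the thinned share was at most 1.07% for Tnc, 0.429% for Fn1 and 0.211% for Col2a1 in any library. Median depths were 2601 to 3095 counts per cell in cortical interneurons and 5085 to 6515 in radial-glia-like cells. Col2a1 was found in 1.31% and 2.70% of thinned COP1 KO radial-glia-like cells and 4.96% and 8.33% of HET cells.

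Counts by role in radial-glia-like cells are small, and differences between roles were not tested. Of the 3 matrix glycoproteins, Fn1 and Tnc rose and Hspg2 had a log2 change of 0.14 (SE 0.41). Of 5 fibrillar collagens tested, Col2a1 fell. Col27a1, at 13.3 and 13.5 CPM in COP1 KO and 5.76 and 4.85 CPM in HET, and Col1a2, at 6.86 and 10.4 CPM in COP1 KO and 3.14 and 2.20 CPM in HET, did not pass (edgeR adjusted p = 0.06087 and 0.08896). Of 6 other collagens tested, Col25a1 rose. Col12a1 measured 27.4 and 29.1 CPM in COP1 KO and 18.3 and 13.7 CPM in HET, with an edgeR adjusted p of 0.07653, and Col22a1 had a log2 change of -0.92 with an edgeR adjusted p of 0.1102. Of 5 basement membrane collagens tested, none passed, with log2 changes between -0.65 and 1.23.

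No integrin or laminin passed in radial-glia-like cells. Itgb1 measured 141 and 175 CPM in COP1 KO and 154 and 175 CPM in HET, with a log2 change of -0.02 (SE 0.11). Itgb8 had a log2 change of 0.27 (SE 0.15), Itga6 one of 0.30 (SE 0.17), Itgb5 one of 0.53 (SE 0.21) and Itgav one of 0.13 (SE 0.32). Lamc1 and Lamb2 had log2 changes of 0.02 (SE 0.25) and 0.00 (SE 0.30), and Lamb1, from 12 and 12 counts in COP1 KO and 3 and 7 in HET, one of 1.19 (SE 0.50). Of the 11 members with a mean of at least 20 CPM, 5 were higher and 1 lower in COP1 KO without overlap between libraries, against 48.6% of all genes at that level.

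**Figure D4:**
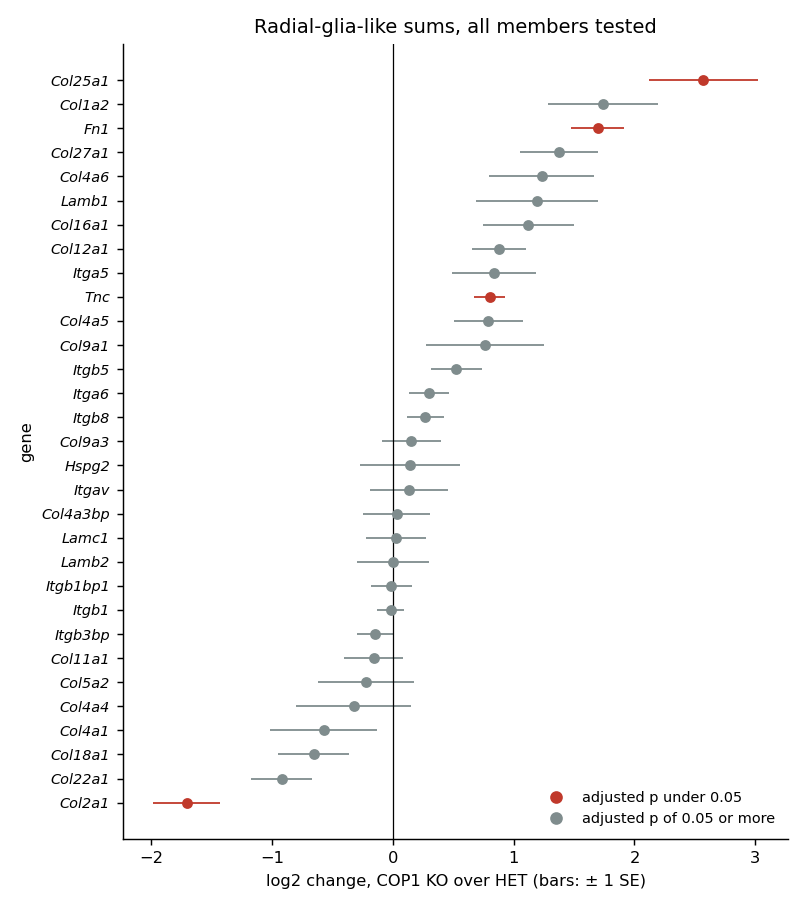
Points show the log2 change, COP1 KO over HET, of the 31 members tested in radial-glia-like sums, with bars of 1 SE and red for an adjusted p under 0.05. Col25a1, Fn1 and Tnc lie right of 0 and Col2a1 left of 0 in red, and Itgb1, Itgb1bp1, Lamb2 and Lamc1 lie within 1 SE of 0.

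Markers of other cell types were measured in the same radial-glia-like sums. The 8 erythroid markers found in the tables summed to 159 and 132 CPM in COP1 KO and 4.72 and 4.85 CPM in HET, with Hemgn and Slc4a1 at 0 in all libraries. The 8 oligodendrocyte-precursor markers summed to 73.1 and 126 CPM in COP1 KO and 44.0 and 31.3 CPM in HET, with Gpr17 at 0. The 14 fibroblast markers summed to 37.5 and 64.8 CPM in COP1 KO and 33.0 and 30.0 CPM in HET, with Foxc2 and Bmp5 at 0, and the 13 endothelial markers to 27.4 and 29.6 CPM in COP1 KO and 21.5 and 19.4 CPM in HET, with Tek and Emcn at 0. All 4 sums were higher in both COP1 KO libraries, and their part in the changes of Fn1, Tnc, Col25a1 and Col2a1 was not tested.

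Intermediate-progenitor-like cells had 1 call among 16 members tested, against 0.558% of all genes tested, and 5 at an unadjusted p under 0.05, against 10.5%. Col25a1 measured 12.1 and 18.9 CPM in COP1 KO and 1.11 and 2.25 CPM in HET, from 21 and 29 counts in COP1 KO and 2 and 4 in HET (log2 change 3.17, SE 0.50, edgeR adjusted p = 0.02433). The genotypes did not overlap. The call was lost without HET replicate 1 (adjusted p = 0.2086), without HET replicate 2 (0.07073), in classes formed without the members (0.05245), without doublet removal (0.06589) and with DESeq2. Tnc measured 12.1 and 9.11 CPM in COP1 KO and 2.78 and 5.07 CPM in HET (edgeR adjusted p = 0.2626), and Itgb1 measured 99.7 and 122 CPM in COP1 KO and 146 and 130 CPM in HET (edgeR adjusted p = 0.4652).

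A class-by-genotype term in edgeR, fitted with the library as a block, compared the change in radial glia with that in excitatory neurons. Of the members tested, 2 (Fn1 and Col25a1) passed, against 2.05% of the 14120 genes tested. Whether the members passed more often than other genes was not tested. The term was 1.68 for Fn1 (log2, SE 0.26, adjusted p = 0.0007738) and 3.37 for Col25a1 (log2, SE 0.63, adjusted p = 0.003804). In excitatory-neuron-like cells Fn1 measured 10.2 and 9.73 CPM in COP1 KO and 10.9 and 9.18 CPM in HET, which overlap, and Col25a1 measured 0.859 and 1.22 CPM in COP1 KO and 1.97 and 1.65 CPM in HET. For Col25a1 the term was 2.58 without HET replicate 1, where the call was lost (adjusted p = 0.06937), and 5.01 without HET replicate 2. For Tnc the term was -0.35 (SE 0.30, adjusted p = 0.7495). Tnc in excitatory-neuron-like cells was low but also higher in both COP1 KO libraries, at 2.83 and 2.67 CPM against 1.26 and 1.24 CPM in HET (log2 change 1.16, SE 0.25, edgeR adjusted p = 0.3685).

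No member was called in excitatory-neuron-like (35 tested), cortical-interneuron-like (12), ganglionic-eminence-progenitor-like (8), striatal-projection-neuron-like (9), Cajal-Retzius-like (3), cluster 0 (11), oligodendrocyte-precursor-like (14) or pooled vessel sums (24). The shares of all genes called were 0.0%, 0.0191%, 0.293%, 0.0296%, 0.0135%, 0.109%, 0.137% and 0.0% in that order. At an unadjusted p under 0.05 edgeR had 3, 1, 1, 0, 0, 3, 3 and 1 of these members, against 9.53%, 6.82%, 7.83%, 6.59%, 6.42%, 8.19%, 9.5% and 4.34% of all genes in the same order. DESeq2 also called none in them.

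Itgb1 lay lower in COP1 KO, without overlap of the libraries, in several of these classes without passing. In cluster 0 it measured 28.4 and 32.0 CPM in COP1 KO and 43.2 and 43.7 CPM in HET (log2 change -0.51, SE 0.15, edgeR adjusted p = 0.3899). In cortical interneurons it measured 37.0 and 50.3 CPM in COP1 KO and 56.0 and 56.7 CPM in HET, in excitatory neurons 39.3 and 53.2 CPM in COP1 KO and 55.1 and 56.6 CPM in HET, and in ganglionic eminence progenitors 74.0 and 89.4 CPM in COP1 KO and 90.3 and 104.5 CPM in HET. Libraries that do not overlap were found for 39.0%, 36.5%, 46.5% and 39.0% of all genes of at least 20 CPM in these 4 classes. In cluster 0, Col23a1 measured 18.6 and 13.5 CPM in COP1 KO and 7.92 and 6.72 CPM in HET (edgeR adjusted p = 0.3465). In striatal projection neurons, Col25a1 measured 33.5 and 32.7 CPM in COP1 KO and 29.0 and 21.0 CPM in HET, and Itgb1bp1 measured 41.7 and 49.4 CPM in COP1 KO and 54.6 and 62.4 CPM in HET.

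Oligodendrocyte-precursor-like cells, a cluster led by Ttr ahead of Olig1 and Olig2, numbered 113 and 139 in COP1 KO and 34 and 37 in HET. Of 13 members of at least 20 CPM, 1 was higher and 4 lower in COP1 KO without overlap, against 40.3% of all genes at that level. Col3a1 had 1 and 0 counts in COP1 KO and 6 and 12 in HET, a ratio of 0.0179 with an exact 95% interval of 0.000429 to 0.113 that covers counting error only (edgeR adjusted p = 0.09685). Col9a3 measured 40.05 and 67.6 CPM in COP1 KO and 246.9 and 68.6 CPM in HET, so that HET replicate 1 set most of the difference. In the same sums the 8 choroid plexus markers reached 37.5 and 10820.1 CPM in COP1 KO and 66638 and 39.2 CPM in HET. They came from 3 cells of COP1 KO replicate 2 and 4 cells of HET replicate 1 in which they exceeded 1% of counts. Without these 7 cells, an alternative chosen after seeing the data, Col3a1 was called lower in COP1 KO. The 14 fibroblast markers summed to 18.1 and 31.9 CPM in COP1 KO and 159.7 and 91.5 CPM in HET, with Foxc1, Twist1 and Bmp5 at 0, and their part in the Col3a1 values was not tested.

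The vessel sums pooled 37 and 20 COP1 KO cells and 23 and 25 HET cells, of which 25 and 9 in COP1 KO and 12 and 17 in HET were endothelial-like. Endothelial-like cells alone fell under the minimum of 20 cells in some libraries, so their values carry no test. Endothelial-like Col4a1 measured 647 and 1273 CPM in COP1 KO and 1349 and 1292 CPM in HET, and Col4a2 measured 731 and 1061 CPM in COP1 KO and 1157 and 929 CPM in HET. COP1 KO replicate 1 was the low library for both, and for Lama4 (179 and 240.5 CPM in COP1 KO, 220.1 and 209.99 CPM in HET) and Lamc1 (128 and 211 CPM in COP1 KO, 208 and 258 CPM in HET). The sum of the 85 genes in endothelial-like cells was 3705 and 5216 CPM in COP1 KO and 5074 and 5188 CPM in HET.

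In the pooled vessel sums, Col4a1 had a log2 change of -0.35 (SE 0.25) and Col4a2 one of -0.11 (SE 0.23). Col18a1, whose product yields endostatin, measured 199 and 219.6 CPM in COP1 KO and 168 and 139 CPM in HET (log2 change 0.51, SE 0.22, edgeR adjusted p = 0.9996). Col1a2 measured 80.1 and 78.9 CPM in COP1 KO and 158 and 85.6 CPM in HET, and Col5a2 39.1 and 44.6 CPM in COP1 KO and 63.7 and 55.5 CPM in HET. Fn1 measured 426 and 412 CPM in COP1 KO and 352 and 377 CPM in HET, and Hspg2 113 and 109.8 CPM in COP1 KO and 151 and 139 CPM in HET. Of the 24 members of at least 20 CPM, 4 were higher and 5 lower in COP1 KO without overlap, against 33.5% of all genes at that level.

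**Figure D5:**
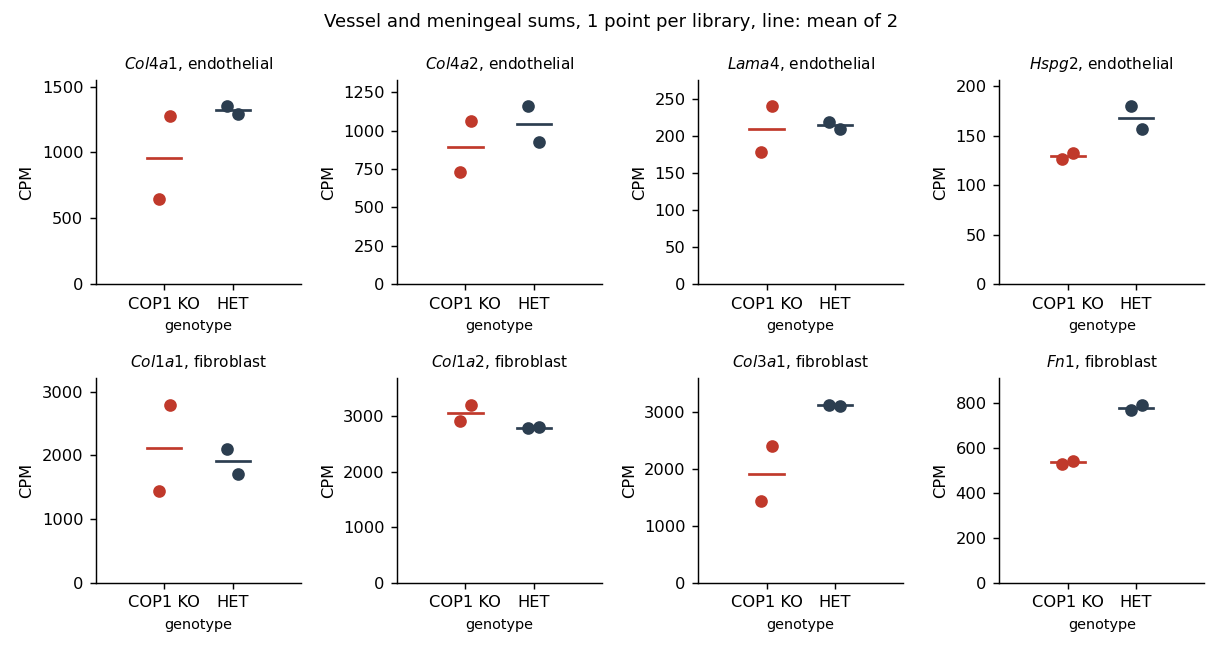
Each panel shows 1 gene in endothelial-like (upper row) or fibroblast-like cells (lower row), with a point per library, a line at the mean of 2 libraries and CPM on the y axis from 0. The 2 COP1 KO libraries differ widely from each other for Col4a1 in endothelial-like cells (647 and 1273 CPM) and for Col1a1 in fibroblast-like cells (1440.0 and 2794 CPM), while Fn1 in fibroblast-like cells is lower in both COP1 KO libraries.

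Fibroblast-like cells, at 24 and 30 in COP1 KO and 21 and 17 in HET, also fell under the minimum of 20 cells, in HET replicate 2 only. With the minimum lowered to 10, which was chosen after seeing the data, 30 members were tested and none was called, against 0.0754% of all genes, and 6 had an unadjusted edgeR p under 0.05, against 8.09%. Among these, Col12a1 (log2 change 2.05, SE 0.55), Col8a2 (2.27, SE 0.60) and Col11a1 (1.34, SE 0.42) were higher in COP1 KO. Col3a1 (-0.67, SE 0.21), Fn1 (-0.51, SE 0.18) and Itgav (-1.31, SE 0.54) were lower. Without COP1 KO replicate 1 the call count was 2 (Col11a1 and Col1a1), without COP1 KO replicate 2 it was 1 (Col3a1), and without HET replicate 1 it was 1 (Col8a2). In microglia-like cells, at the same minimum of 10, 3 members were tested, none was called (0.282% of all genes) and none had an unadjusted edgeR p under 0.05 (6.24%).

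Over the whole libraries 71 of the 90 members were tested and none was called, against 0.0061% of all genes tested. At an unadjusted edgeR p under 0.05 stood 12, against 10.4% of all genes. Tnc measured 28.9 and 38.0 CPM in COP1 KO and 15.8 and 16.4 CPM in HET (log2 change 1.08, SE 0.13, edgeR adjusted p = 0.121), and it was the 1 member that DESeq2 called. Col4a1 measured 18.7 and 19.8 CPM in COP1 KO and 21.5 and 26.3 CPM in HET (log2 change -0.29, SE 0.11, edgeR adjusted p = 0.4788). In such sums over all cells, fewer cells of a type and less RNA per cell cannot be told apart. Radial-glia-like cells, which hold most Tnc counts, numbered 385 and 333 in COP1 KO and 282 and 300 in HET. Oligodendrocyte-precursor-like cells, which also express Tnc, numbered 113 and 139 in COP1 KO and 34 and 37 in HET. They gave 172 and 258 Tnc counts in COP1 KO and 60 and 61 in HET. The part of these cell numbers in the whole-library Tnc values was not tested.

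Other genes of matrix assembly, matrix binding and matrix turnover were read from 4 lists in radial-glia-like cells, where 3.06% of all genes tested were called. Of 17 tested genes of collagen processing, P4ha3, a subunit of the prolyl hydroxylase that stabilizes the collagen helix, rose (80.4 and 73.9 CPM in COP1 KO, 24.6 and 35.7 CPM in HET, log2 change 1.39) and none fell. Of 16 other matrix glycoproteins and proteoglycans tested, 3 rose and none fell. Sparc, a collagen-binding protein, measured 1072 and 977 CPM in COP1 KO and 422 and 423 CPM in HET (log2 change 1.33, SE 0.09, edgeR adjusted p = 0.0001045). Its relative Sparcl1 had a log2 change of 1.46 and Ncan, the proteoglycan neurocan, one of 0.75.

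Against the same 3.06% of all genes, of 25 integrin adaptors and other matrix receptors tested, Zyx (zyxin, log2 change 0.74), the collagen receptor Ddr1 (0.53) and the tetraspanin Cd81 (0.41) rose and none fell. Of 13 proteases and inhibitors tested, Plat, tissue plasminogen activator, rose (54.8 and 61.7 CPM in COP1 KO, 14.2 and 27.8 CPM in HET, log2 change 1.49) and none fell. The medians of the 4 lists were -0.06, 0.35, 0.11 and 0.23 in the order given here, against -0.01 over all genes tested. In ganglionic-eminence-progenitor-like cells, where 0.293% of all genes were called, Serpine2, a serine protease inhibitor of the matrix, rose (97.3 and 170.6 CPM in COP1 KO, 12.1 and 38.3 CPM in HET, log2 change 2.38, SE 0.33). No gene of these lists was called in the intermediate-progenitor-like, vessel or whole-library sums.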

How the data were processed

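Per the labels' protocols, cortex was dissociated with papain and single cells were captured with the 10x Chromium 3′ kit v2. Each library was sequenced in its own HiSeq4000 lane. Per the submitters' processing notes, reads were aligned with GSNAP, and the builds named are GRCm38 and mm10. The sources used here do not give the counter, annotation, strand setting, barcode calling or collapsing of molecular identifiers. Each deposited table holds counts, whole numbers by gene and barcode that the authors left without normalization.

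Of 36528 rows, 3065 carried a number in place of a symbol (1.69% of counts) and were left out, as were 19 copies of rows with identical counts. Of 19237 barcodes, 222 with under 500 genes, 1 with over 10% mitochondrial counts and 234 with a Scrublet score over 0.25 (1.23%) were removed. Scrublet's own threshold marked 12 (0.06%). Clustering used 2000 variable genes, 30 principal components, 15 neighbours and Leiden resolution 1.0 (scanpy 1.11.5, leidenalg 0.10.2). A class needed 3 detected markers, a marker score of 0.5 and a lead of 0.3 on the second type.

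Counts were summed per library over classes of at least 20 cells in every library and tested with edgeR 4.0.16 (TMM, filterByExpr, quasi-likelihood F-test, R 4.3.3), with Benjamini-Hochberg adjustment at 0.05. DESeq2 1.42.0 was an alternative. With 2 libraries per genotype, the smallest two-sided p of an exact permutation test is 0.333, and the p-values given depend on edgeR's pooling of the spread across genes. They measure the spread between these libraries only, in which mouse, capture and lane cannot be told apart. Each SE was obtained by dividing the log2 change by the root of its F value. On simulated radial-glia-like sums of 11417 genes the test found 65% of 2-fold and 99% of 4-fold changes and called 0.08% of unchanged genes. The simulation gave every gene the same assumed spread, which was not estimated from these data. Changes were increases only, in genes above a minimum count, so the shares need not hold for members with few counts.

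The genes named are members with an adjusted p under 0.05, the 3 highest members of each class, a fixed list of matrix and integrin genes (Fn1, Tnc, Hspg2, Itgb1, Col4a1, Col4a2, Lama1 to Lama5, Lamb1, Lamb2, Lamc1, Itga6, Itgav, Itgb5 and Itgb8), and up to 3 members per tested class of at least 20 CPM without overlap between genotypes. Others named were chosen after their values were seen. The members, lists, markers and naming thresholds were chosen with earlier results of these data known. Sequences are from RefSeq (GRCm38.p6), where 64 of 90 members matched a promoter.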

Additional observations from a re-analysis of the deposited data

Results flagged for a closer look

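The change of Fn1 between COP1 KO and HET was larger in radial glia than in excitatory neurons by 1.68 on the log2 scale, by the class-by-genotype term of edgeR (adjusted p = 0.0007738, 2 libraries per genotype, each giving both classes). The COP1 KO values lay above the HET values in radial-glia-like cells and among them in excitatory-neuron-like cells. The same term was 3.37 for Col25a1 (adjusted p = 0.003804). Its COP1 KO values lay above the HET values in radial-glia-like cells and below them in excitatory-neuron-like cells, where 10 and 15 counts in COP1 KO and 25 and 20 in HET were found.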

How the results depend on the processing

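No paired analysis was possible because the labels carry no replicate numbers, so the genotypes share none. In radial-glia-like sums the count of 4 called members became 9 with no filter on low counts and ran between 0 and 8 when 1 library was left out. The intermediate-progenitor-like count of 1 became 0 with DESeq2, with classes formed without the members and with no doublet removal, and ran between 0 and 1 when 1 library was left out. The counts of 0 became 1 for cluster 0 and 2 for oligodendrocyte-precursor-like sums with no low count filter, 1 for oligodendrocyte-precursor-like sums with choroid plexus marker cells removed, and 1 for the whole library with DESeq2. Leaving out 1 library gave between 0 and 2 calls in cluster 0, 0 and 3 in excitatory-neuron-like sums, 0 and 1 in oligodendrocyte-precursor-like sums and 0 and 4 in the whole library. The class-by-genotype count of 2 ran between 1 and 2. For Col2a1 that term was 0.70 and ran between -0.86 (leaving out the second COP1 KO library) and 3.73 (leaving out the first), from few counts in excitatory neurons. With all 4 libraries, Fn1, Tnc, Col25a1 and Col2a1 in radial-glia-like sums kept their direction and their call under all 9 other alternatives, with log2 changes of 1.60 to 1.89, 0.62 to 0.998, 2.44 to 2.62 and -1.75 to -1.57. The cause of the changes was not tested, except that a left-out library or filter alters how many samples or genes enter the fit. With 2 libraries per genotype and an assumed spread, 65% of simulated 2-fold increases in radial-glia-like sums were found, so changes of this size can be missed. Members with few counts were not covered by that share. The classes of vessel and meningeal cells held 105 and 92 cells, which limits the precision of their values.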
